A study of Homo sapiens with 12 samples.

Results

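The genes described here are the sensors, receptors, kinase and transcription factors through which cells detect foreign RNA and respond to type I interferon. They were listed by name as STAT2, IRF1, IRF7, IRF9, IFIH1, DHX58, IFNAR1, IFNAR2 and JAK1, and their probe sets were found through the gene symbols of the array's annotation. Of the 9 listed genes, 8 had a probe set, 1 each, among 17687 gene symbols on the array, and STAT2 was not analysed here. RNA from H1975 and PC-9, both established human lung adenocarcinoma lines with an EGFR mutation, had been hybridised to 12 whole-transcript arrays of 1 colour, 3 for each of 4 groups. The tolerant H1975 and tolerant PC-9 groups were the cells of each line still alive on day 8 of 0.5 µM osimertinib, which blocks signalling by mutated EGFR. The SK-216 groups were such cells that were alive after a further 48 h with 100 µM SK-216, which the labels name as an inhibitor of PAI-1, the plasminogen activator inhibitor. All 4 groups had therefore been through osimertinib per titles, descriptions and treatment text, but another label of the SK-216 samples, their source name, says naive cells. Whether osimertinib stayed in the medium during SK-216 is not stated, and tolerant cells kept for the same 48 h without SK-216 are not described. An effect of SK-216 and one of those 48 h cannot be told apart. Both kinds of group hold surviving cells only.

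IFIH1 (also called MDA5) and DHX58 (LGP2) are helicases of the RIG-I-like receptor family that bind double-stranded RNA in the cytoplasm, and signalling from this family leads to production of interferon. Type I interferon binds a receptor built from IFNAR1 and IFNAR2, which carry the kinases TYK2 and JAK1. These kinases phosphorylate STAT2, which joins IRF9 in the complex ISGF3 that binds the interferon-stimulated response element in promoters. IRF1 and IRF7 are factors of the same family as IRF9 and bind related elements, and IFIH1, DHX58, IRF9, IRF1 and IRF7 are themselves known to be induced by interferon.

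The promoters of IFIH1, IRF9 and IRF1, the 3 genes whose H1975 groups did not overlap, are printed to show which of these elements lie in them. The RefSeq promoter table of assembly GRCh38.p14 held 8 promoters for 5 of the 8 measured genes, each window running from 250 bases before to 50 bases after a transcription start, and promoters of DHX58, IFNAR2 and IRF7 were not analysed here. Each window was searched on both strands for the core of the response element, GAAANNGAAA, and for the gamma-activated site, TTCNNNGAA, an element that STAT dimers bind. The 250 bases before the start are given 5′ to 3′ on the strand of the gene, with matches in capitals. IFIH1 lies on the minus strand (chr2:162318685-162318934), IRF9 on the plus strand (chr14:24161015-24161264) and IRF1 on the minus strand (chr5:132490774-132491023).
IFIH1: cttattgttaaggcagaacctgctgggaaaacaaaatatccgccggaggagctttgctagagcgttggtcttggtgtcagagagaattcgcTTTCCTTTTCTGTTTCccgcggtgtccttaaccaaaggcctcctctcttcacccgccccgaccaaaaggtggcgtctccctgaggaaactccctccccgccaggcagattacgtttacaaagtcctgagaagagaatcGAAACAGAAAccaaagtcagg
IRF9: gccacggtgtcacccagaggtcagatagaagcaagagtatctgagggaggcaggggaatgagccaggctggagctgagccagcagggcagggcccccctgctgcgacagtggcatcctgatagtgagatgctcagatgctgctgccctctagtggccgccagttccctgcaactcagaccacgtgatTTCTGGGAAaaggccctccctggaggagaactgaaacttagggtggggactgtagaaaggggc
IRF1: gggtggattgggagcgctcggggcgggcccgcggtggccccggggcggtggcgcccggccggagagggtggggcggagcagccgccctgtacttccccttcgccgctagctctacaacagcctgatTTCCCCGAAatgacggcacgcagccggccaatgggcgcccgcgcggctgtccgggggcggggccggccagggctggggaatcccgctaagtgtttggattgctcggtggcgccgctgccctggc

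The IFIH1 window held 3 matches to the response element core. A pair lay on the reverse strand, 159 to 150 and 153 to 144 bases before the start, so that they overlapped by 4 bases, and the third lay on the forward strand 21 to 12 bases before it. The IRF9 window held 1 gamma-activated site, 63 to 55 bases before the start, and the IRF1 window held 1, 124 to 116 bases before it. No exact match to either motif was found in the 2 windows of IFNAR1 or the 3 of JAK1, which says only that these letters were not in those windows. Over all 35116 promoters of the table, 3.57% held the response element core and 7.66% the gamma-activated site. With 1 mismatch allowed, 33.0% of promoters held the core, and so did windows of 2 of the 5 genes, IFIH1 and JAK1. A match is a description of the sequence and not evidence of binding.

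**Figure D1:**
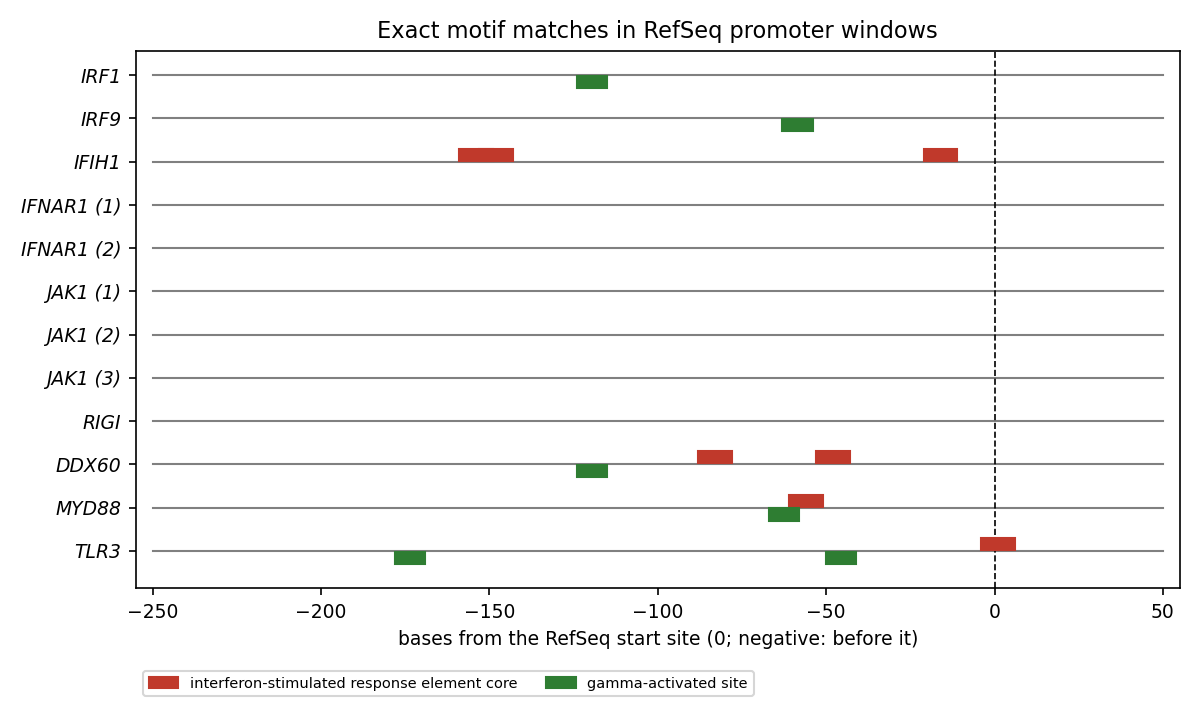
Positions of exact motif matches (coloured bars) along RefSeq promoter windows, in bases from the transcription start. Shown are the measured genes with a promoter in the table, and RIGI, DDX60, MYD88 and TLR3. Windows of IFI16, IFNGR1, STAT6 and UBE2L6, also called lower in H1975, held no exact match and are not drawn. IFIH1 has 3 response element cores, of which an overlapping pair appears as 1 bar, and IRF9 and IRF1 each have 1 gamma-activated site.

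The deposited values are log2 signals. Arrays of the same group correlated at 0.993 to 0.995, arrays of the same line but different group at 0.992 to 0.994, and arrays of different lines at 0.927 to 0.932 over all probe sets. As a reference for genes that are not expected to be transcribed in these cells, the 349 olfactory receptor probe sets had a median log2 signal of 3.61 and a 95th percentile of 5.14. IRF7 lay below that percentile on all 12 arrays, and the other 7 genes lay above it on all 12. Log2 fold changes (SK-216 minus tolerant) below come from a limma model over all 12 arrays and 21448 probe sets, with the standard error of the fit and 3 arrays per group. Adjusted p-values are Benjamini-Hochberg values of that limma fit over all probe sets, and a change is called where they are below 0.05.

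In H1975, the RNA sensor IFIH1 and the ISGF3 subunit IRF9 were lower after SK-216, while the receptor chains and JAK1 did not pass the test. In PC-9 none of the 8 genes passed. A lower bulk signal can come from fewer cells of a kind or from less RNA per cell, which cannot be told apart here.

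IFIH1 had log2 signals of 10.06, 10.30 and 10.33 in tolerant H1975 cells and 9.34, 9.32 and 9.21 after SK-216. All 3 SK-216 arrays were below all 3 tolerant arrays. The group means were 10.23 ± 0.15 and 9.29 ± 0.070 (SD, n = 3), a log2 fold change of -0.94 ± 0.16 (95% interval -1.27 to -0.61, limma adjusted p = 0.00068), or 1.92-fold lower. In PC-9 the signals were 7.90, 7.67 and 7.81 in tolerant cells and 7.85, 7.88 and 8.38 after SK-216. The PC-9 groups overlapped, with 1 SK-216 array, replicate 3, above the rest, and the change of 0.24 ± 0.16 did not pass (95% interval -0.09 to 0.58, limma adjusted p = 0.624).

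DHX58, which binds RNA and modulates signalling by IFIH1, had log2 signals of 8.49, 7.90 and 8.33 in tolerant H1975 cells and 7.39, 7.63 and 8.01 after SK-216. The highest SK-216 array was above the lowest tolerant array, so the groups overlapped. Its change of -0.56 ± 0.22 was not called (95% interval -1.02 to -0.11, limma adjusted p = 0.201). Tolerant PC-9 cells had 7.37, 7.30 and 7.85 and SK-216 PC-9 cells 7.35, 8.07 and 7.72, which overlapped, with a change of 0.21 ± 0.22 (95% interval -0.25 to 0.66, limma adjusted p = 0.793).

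**Figure D2:**
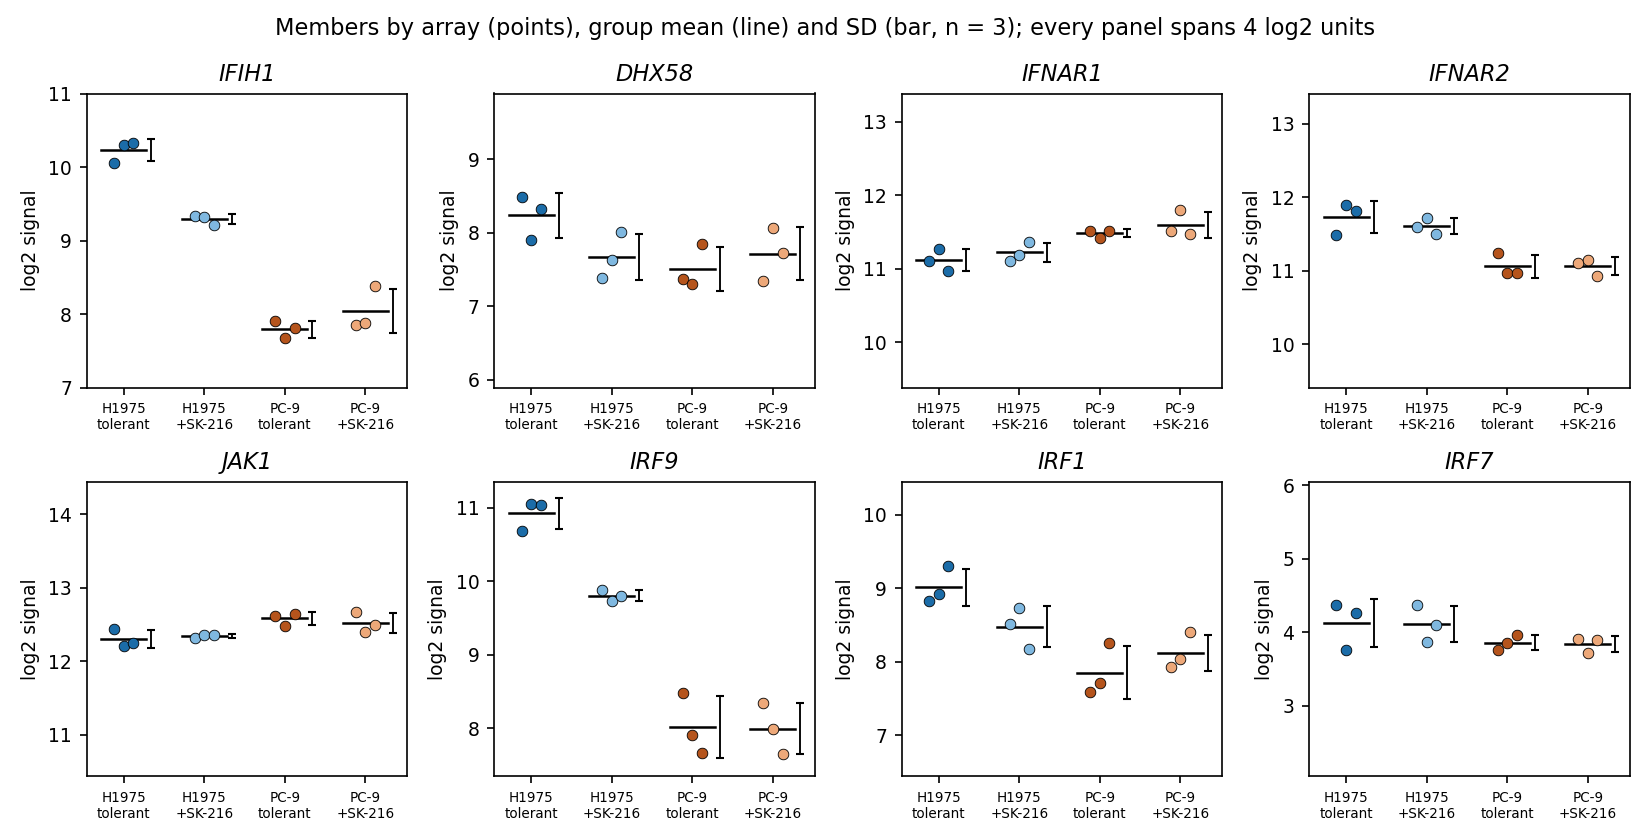
Log2 signal of each measured gene on every array (points), with the group mean (line) and SD (bar, n = 3), for tolerant and SK-216 cells of H1975 and PC-9. In H1975, the SK-216 arrays of IFIH1, IRF9 and IRF1 lie below all tolerant arrays, and IFIH1 and IRF9 are lower in PC-9 than in H1975 in both conditions.

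Neither receptor chain passed the test in either line. IFNAR1, the low-affinity chain, had log2 signals of 11.11, 11.27 and 10.97 in tolerant H1975 cells and 11.11, 11.19 and 11.37 after SK-216, and the groups overlapped. The PC-9 arrays gave 11.52, 11.42 and 11.52 before and 11.52, 11.80 and 11.48 after, again with overlap. The changes of 0.11 ± 0.12 in H1975 (95% interval -0.14 to 0.35, limma adjusted p = 0.780) and 0.11 ± 0.12 in PC-9 (-0.13 to 0.36, limma adjusted p = 0.789) did not pass.

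IFNAR2, the chain with high affinity for interferon, had log2 signals of 11.48, 11.89 and 11.81 in tolerant H1975 cells and 11.60, 11.72 and 11.50 after SK-216. In PC-9 it had 11.24, 10.97 and 10.97 and then 11.11, 11.15 and 10.93. Both pairs of groups overlapped. The change was -0.12 ± 0.12 in H1975 (95% interval -0.38 to 0.14, limma adjusted p = 0.755) and 0.0033 in PC-9 (-0.25 to 0.26, limma adjusted p = 0.994).

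JAK1, the kinase bound to IFNAR2 and to several other cytokine receptors, had log2 signals of 12.44, 12.21 and 12.25 in tolerant H1975 cells and 12.32, 12.36 and 12.36 after SK-216. Its PC-9 arrays gave 12.62, 12.48 and 12.65 and then 12.67, 12.40 and 12.49. The groups overlapped in both lines. Its change was 0.05 ± 0.10 in H1975 (95% interval -0.16 to 0.25, limma adjusted p = 0.909) and -0.06 ± 0.10 in PC-9 (-0.27 to 0.14, limma adjusted p = 0.873), the narrowest intervals among the 8 genes.

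IRF9, the DNA-binding subunit of ISGF3, had log2 signals of 10.68, 11.05 and 11.04 in tolerant H1975 cells and 9.88, 9.73 and 9.80 after SK-216. No array overlapped between the groups, with group means of 10.92 ± 0.21 and 9.80 ± 0.075 (SD, n = 3). The change was -1.12 ± 0.19 (95% interval -1.52 to -0.72, limma adjusted p = 0.00068), or 2.17-fold lower, the largest of the 8 genes in H1975. In PC-9 the signals were 8.48, 7.91 and 7.66 in tolerant cells and 8.34, 7.99 and 7.65 after SK-216. These groups covered nearly the same range, and the change was -0.02 ± 0.19 (95% interval -0.42 to 0.37, limma adjusted p = 0.979).

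IRF1, a factor also induced by interferon-gamma, had log2 signals of 8.82, 8.92 and 9.30 in tolerant H1975 cells and 8.52, 8.73 and 8.18 after SK-216. The groups did not overlap, but the change of -0.54 ± 0.20 was not called (95% interval -0.95 to -0.12, limma adjusted p = 0.172). Tolerant PC-9 cells had 7.59, 7.71 and 8.26 and SK-216 PC-9 cells 7.93, 8.04 and 8.40, which overlapped, with a change of 0.27 ± 0.20 (95% interval -0.14 to 0.68, limma adjusted p = 0.674).

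IRF7, the factor that amplifies interferon production after induction, was at the level of the olfactory receptor probe sets throughout, so its values cannot show a fall. Tolerant H1975 cells had log2 signals of 4.37, 3.76 and 4.26 and SK-216 cells 4.37, 3.87 and 4.10. PC-9 had 3.76, 3.85 and 3.97 and then 3.91, 3.72 and 3.90. Both pairs of groups overlapped, and the change was -0.02 ± 0.20 in each line (limma adjusted p = 0.986 in H1975 and 0.987 in PC-9).

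Of the 8 genes in H1975, 2 were called lower, where 2.35% of all probe sets were, and none was called higher, where 1.44% of all probe sets were. At an unadjusted p below 0.05 there were 4, all lower: IRF9, IFIH1, DHX58 and IRF1. Over all probe sets, 14.2% had such a p, in either direction. Arrays of the groups did not overlap for 3 of 8, all lower, where 9.56% of all probe sets had all SK-216 arrays below all tolerant ones. The median change was -0.33, with 6 of 8 below 0, and the median over all probe sets was 0.01. In PC-9, limma called none of the 8, none had an unadjusted p below 0.05 and none had groups without overlap, where 0.443% of all probe sets were called, 10.9% had such a p and 15.0% did not overlap in either direction. The PC-9 median was 0.06. Calls in PC-9 were few in all, 95 probe sets against 814 in H1975, and the 95 became 46 without tolerant PC-9 replicate 3 and 60, 30 and 59 without SK-216 PC-9 replicates 1, 2 and 3.

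The difference between the lines in the SK-216 change was tested directly, as the change in PC-9 minus that in H1975. Of the 8 genes, IFIH1 and IRF9 were called, where 1.42% of all probe sets were. IFIH1 differed by 1.18 ± 0.23 (95% interval 0.71 to 1.66, limma adjusted p = 0.00585). IRF9 differed by 1.10 ± 0.27 (95% interval 0.53 to 1.66, limma adjusted p = 0.0405). The IFIH1 call was kept without any single array, but the IRF9 call was not. Its limma adjusted p became 0.0957 and 0.106 without tolerant H1975 replicates 2 and 3, and 0.0651, 0.0761 and 0.0830 without SK-216 H1975 replicates 1, 2 and 3. It became 0.0743 and 0.116 without tolerant PC-9 replicates 2 and 3, and 0.126 and 0.0843 without SK-216 PC-9 replicates 1 and 2. It was also 0.163 when the variance was not allowed to depend on the mean level. The IRF9 difference itself stayed between 0.92 and 1.33 in the 12 fits without 1 array.

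The remaining 6 genes were not called for this difference. IRF1 differed by 0.81 ± 0.28 (95% interval 0.22 to 1.39, limma adjusted p = 0.190) and DHX58 by 0.77 ± 0.31 (0.13 to 1.41, limma adjusted p = 0.279). The differences of IFNAR1, IFNAR2 and JAK1 were 0.01 ± 0.17, 0.12 ± 0.18 and -0.11 ± 0.14, and that of IRF7 was 0.00. These changes share the tolerant arrays with the comparison of the lines given next, so the values stand side by side and are not independent.

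**Figure D3:**
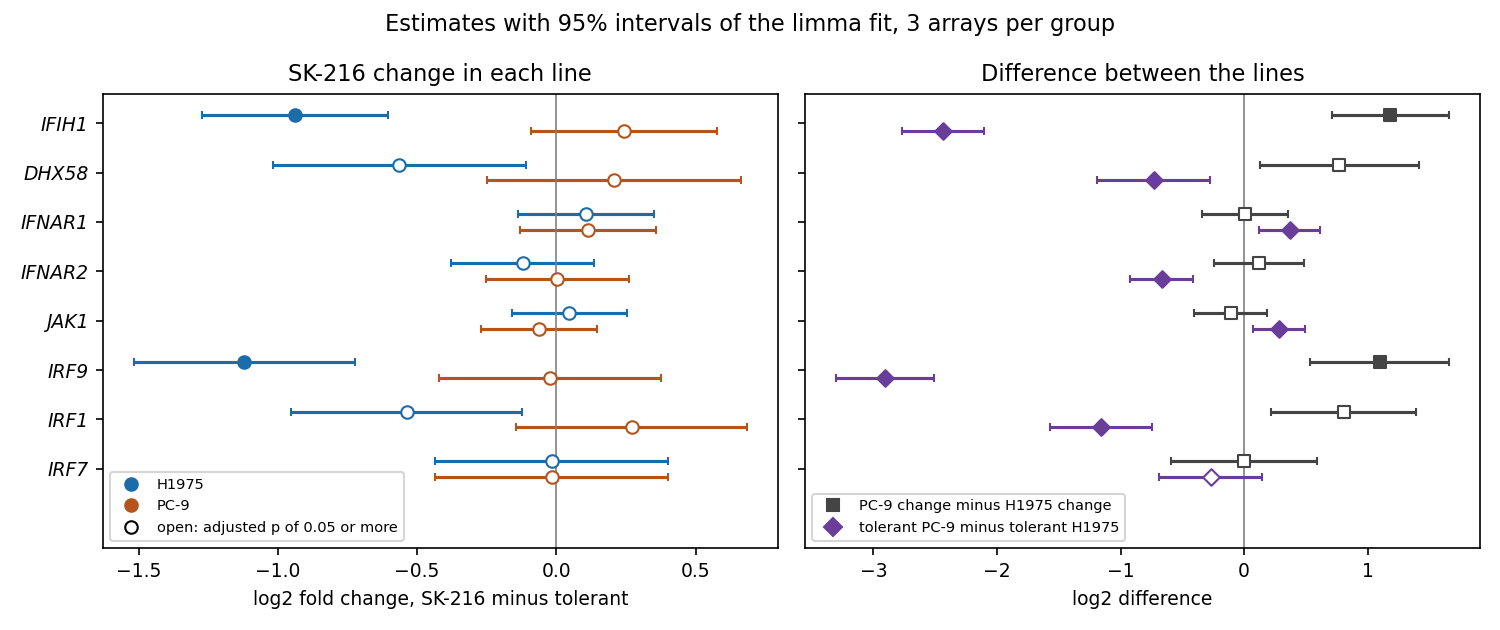
Log2 change with SK-216 in each line (left) and, on the right, the difference between these changes (PC-9 minus H1975) and the difference between tolerant lines (PC-9 minus H1975), with 95% intervals of the limma fit and filled symbols where the adjusted p is below 0.05. Left, only the H1975 changes of IFIH1 and IRF9 are filled, and right, IFIH1 and IRF9 have the largest values of both kinds.

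Before SK-216 the 2 lines already differed in 7 of the 8 genes, where 44.0% of all probe sets were called between tolerant PC-9 and tolerant H1975 cells. IRF9 was 7.50-fold lower in PC-9 (log2 difference -2.91 ± 0.19, limma adjusted p = 4.04e-12) and IFIH1 5.41-fold lower (-2.44 ± 0.16, limma adjusted p = 4.12e-12). IRF1 (-1.16 ± 0.20, limma adjusted p = 2.95e-05), DHX58 (-0.73 ± 0.22, limma adjusted p = 0.00798) and IFNAR2 (-0.67 ± 0.12, limma adjusted p = 7.58e-05) were also lower in PC-9. IFNAR1 (0.37 ± 0.12, limma adjusted p = 0.0127) and JAK1 (0.28 ± 0.10, limma adjusted p = 0.0238) were higher in PC-9, and IRF7 was not called (-0.27 ± 0.20, limma adjusted p = 0.320). All 7 called genes had tolerant groups that did not overlap, but the share of all probe sets without such overlap was not counted.

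3 of these line differences rested on single arrays. DHX58 had a limma adjusted p of 0.0537 without tolerant H1975 replicate 1 and IFNAR1 one of 0.0732 without tolerant H1975 replicate 3. JAK1 had 0.102 and 0.0722 without tolerant H1975 replicates 2 and 3, 0.0604 and 0.0900 without tolerant PC-9 replicates 1 and 3, 0.0536 after centring each array on its median, and 0.0840 without the trend of the variance.

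In the order of the 4 groups, IRF9 and IFIH1 ran from tolerant H1975 to SK-216 H1975 to PC-9, with no overlap at either step, and the lowest SK-216 H1975 array (9.73 for IRF9, 9.21 for IFIH1) still lay above the highest PC-9 array (8.48 and 8.38). The distance between the lines was 2.91 for IRF9 in tolerant cells and 1.81 in SK-216 cells (log2), and for IFIH1 2.44 and 1.25, so the lines lay apart in both. For DHX58 the distance was 0.73 in tolerant cells, and the SK-216 groups of both lines overlapped. For IRF1 the SK-216 groups of the lines also overlapped. IFNAR1 had both PC-9 groups above both H1975 groups and IFNAR2 the reverse, without overlap between the lines. JAK1 had higher means in both PC-9 groups, but its lowest SK-216 PC-9 array (12.40) was below its highest tolerant H1975 array (12.44).

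The wider pathway was described from lists of named genes. Over all probe sets in H1975, 2.35% were called lower, 1.44% were called higher and 14.2% had an unadjusted p below 0.05 (limma). In PC-9, 0.443% were called in either direction and 10.9% had such a p. Of 20 measured interferon ligand genes, none was called in either line, with 1 at an unadjusted p below 0.05 in H1975 and 2 in PC-9 (limma). In all 4 groups, 19 of them, IFNB1 and IFNL1 included, lay at the olfactory receptor level. IFNL3 was the exception only narrowly, with group means of 5.13 to 5.43 against the 95th percentile of 5.14. The other interferon receptors were called in 1 of 4 in H1975: IFNGR1, the ligand-binding chain of the interferon-gamma receptor, fell by 0.90 ± 0.11 on the log2 scale (limma adjusted p = 1.31e-05), with a PC-9 change of 0.08 ± 0.11 and a difference of 0.98 ± 0.16 between the lines (limma adjusted p = 0.00116).

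Among 8 other JAK and STAT genes, 1 was called lower in H1975, where 2.35% of all probe sets were. None was called in PC-9, where 0.443% of all probe sets were. STAT6, the factor activated by interleukin-4, had log2 signals of 10.45, 10.62 and 10.57 in tolerant H1975 cells and 9.58, 9.71 and 9.83 after SK-216, a change of -0.84 ± 0.12 (limma adjusted p = 0.000112). TYK2, the kinase on IFNAR1, had a change of -0.05 ± 0.20 (limma adjusted p = 0.956), JAK2 of -0.36 ± 0.21 (0.469) and STAT3 of -0.19 ± 0.11 (0.462), none of which passed. Of 8 other IRF genes and IRF-binding proteins, none was called in either line and none had an unadjusted p below 0.05 (limma). Of all probe sets, 14.2% in H1975 and 10.9% in PC-9 had such a p, so none among 8 genes is not far from that share. IRF2, a factor that competes with IRF1 for its sites, had a change of -0.35 ± 0.17 in H1975 (limma adjusted p = 0.359), and IRF3 lay at the olfactory receptor level.

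Sensors and adaptors other than IFIH1 and DHX58 were called lower in 7 of 25 in H1975, none higher, and none in PC-9. Of all probe sets, 2.35% were called lower in H1975, and 0.443% were called in PC-9 in either direction. RIGI, the sensor of short double-stranded RNA related to IFIH1, had log2 signals of 10.16, 10.22 and 10.15 in tolerant H1975 cells and 8.98, 9.30 and 9.05 after SK-216. No array overlapped, and RIGI fell by 1.07 ± 0.15 on the log2 scale (limma adjusted p = 8.41e-05), with a difference of 1.26 ± 0.22 from PC-9 (limma adjusted p = 0.0018). DDX60, a helicase reported to assist RIG-I-like receptors, fell by 1.05 ± 0.15 (limma adjusted p = 0.000111) and differed from PC-9 by 1.54 ± 0.22 (limma adjusted p = 0.00021). MYD88, the adaptor of most Toll-like receptors, fell by 0.78 ± 0.13 (limma adjusted p = 0.000456) and IFI16, a DNA sensor, by 0.54 ± 0.09 (limma adjusted p = 0.000697). The IFI16 difference from PC-9 of 0.48 ± 0.13 was not called (limma adjusted p = 0.0739). That of MYD88 was called at 0.77 ± 0.18 (limma adjusted p = 0.0296), but not without tolerant H1975 replicates 2 and 3 (0.0826 and 0.0910), SK-216 H1975 replicates 1 and 3 (0.0571 and 0.0646), tolerant PC-9 replicate 3 (0.0960) or SK-216 PC-9 replicates 1 and 2 (0.0907 and 0.0948).

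The endosomal RNA sensor TLR3 fell by 0.54 ± 0.14 in H1975 (limma adjusted p = 0.0278), a call lost without tolerant H1975 replicates 1 and 2 (limma adjusted p = 0.121 and 0.0826) and without SK-216 H1975 replicate 2 (0.125). Its difference from PC-9 of 0.36 ± 0.20 was not called (limma adjusted p = 0.480). MAVS, the mitochondrial adaptor through which IFIH1 and RIGI signal, had a change of -0.10 ± 0.14 (limma adjusted p = 0.843) and did not pass. Beside IRF9 and IFIH1, the H1975 calls thus held 7 sensors and adaptors, RIGI, DDX60, MYD88, IFI16 and TLR3 among them. IKBKE and STING1, of the same list, also had lower means with SK-216 in H1975 (9.71 to 8.98 and 11.56 to 11.02). MAVS, TYK2 and JAK1 were not among the H1975 calls.

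Of 18 genes listed as negative regulators, 2 were called lower in H1975, where 2.35% of all probe sets were, and none was called in PC-9. UBE2L6, the conjugating enzyme of ISG15, was on this list although it attaches ISG15, which USP18 removes. UBE2L6 fell by 0.42 ± 0.09 (limma adjusted p = 0.00872), a call lost without tolerant H1975 replicate 3 (0.0672). USP18, which removes ISG15 and blocks signalling at IFNAR2, fell by 0.71 ± 0.20 (limma adjusted p = 0.0405). That call was lost without any 1 of the H1975 arrays: the limma adjusted p was 0.0846, 0.114 and 0.149 without tolerant replicates 1, 2 and 3 and 0.0595, 0.0757 and 0.182 without SK-216 replicates 1, 2 and 3. SOCS1 lay at the olfactory receptor level. Interferon-stimulated effector genes, the targets of ISGF3, were called lower in 29 of 44 in H1975, where 2.35% of all probe sets were. In PC-9, 0 of 44 were called, where 0.443% of all probe sets were called in either direction. There, 10 of the 44 had an unadjusted p below 0.05 (limma), 4 lower and 6 higher, against 10.9% of all probe sets. The median change of the effector genes was -0.83 in H1975 and 0.05 in PC-9. For the difference between the lines, 18 of 44 were called, where 1.42% of all probe sets were.

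**Figure D4:**
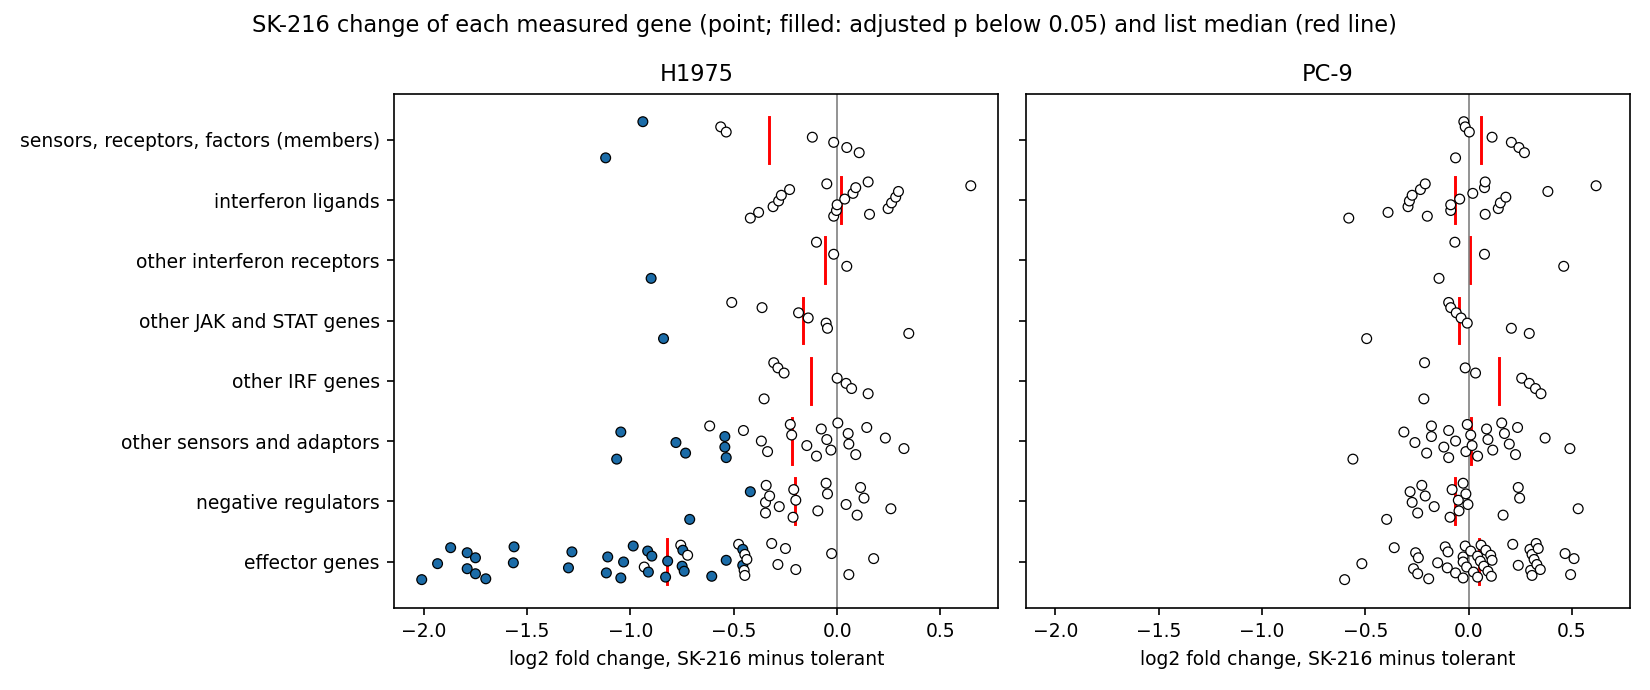
Log2 change with SK-216 of every measured gene (points, filled where the limma adjusted p is below 0.05) by list, with the list median as a red line, for H1975 and PC-9. In H1975 the effector genes have a median of -0.83, and in PC-9 no point is filled.

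The genes whose pattern over the 12 arrays was most like that of IRF9 and IFIH1 were found among 17701 named probe sets by Pearson correlation after each line's mean was subtracted. The 12 points share the 4 groups and cell lines, and are not independent conditions. For IRF9 they were MYD88 (r = 0.949), ITGB1, an integrin chain (0.946), and DPYSL2 (0.942). For IFIH1 they were P4HA2, a prolyl hydroxylase of collagen (0.948), TMSB4X, an actin-binding peptide (0.944), and PML, the scaffold of nuclear bodies (0.941). In H1975, PML fell by 0.84 ± 0.12 on the log2 scale (limma adjusted p = 8.12e-05). P4HA2 changed by -0.26 and was not called (limma adjusted p = 0.136), and TMSB4X changed by -0.31 (0.00782). ITGB1 changed by -0.36 (limma adjusted p = 0.00289) and DPYSL2 by -0.54 (0.00354). Between members the highest correlation was that of IFIH1 with IRF1 (0.77), followed by IFIH1 with IRF9 (0.73).

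The remaining genes had likest patterns as follows. For IRF1 they were WSB2 (r = 0.927), UGP2 (0.917) and MEIOC (0.894), and for DHX58 they were CHGA (0.953), USP26 (0.900) and HPS5 (0.865). For IFNAR1 they were TNNC1 (0.951), ATXN3L (0.889) and TLX3 (0.884), and for IFNAR2 they were BLCAP (0.943), TAS2R41 (0.888) and YIPF2 (0.874). JAK1 was closest to CD2BP2 (0.886), LINC01276 (0.875) and MAFG (0.854), and IRF7 to F10 (0.887), ZNF517 (0.870) and PLIN1 (0.859). These are the 3 highest of 17701 correlations for each gene, over 12 arrays, and are given as descriptions. Those of IRF7 are correlations with a signal at the olfactory receptor level.

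Markers of cell types were read beside these results. Of 13 lung epithelial and adenocarcinoma markers, 11 were above the olfactory receptor level in at least 1 group, among them EPCAM and the keratins, while the lung lineage markers NKX2-1 and NAPSA were at or below it. With SK-216 in H1975, 3 of the 13 were called higher and 3 lower, where 1.44% and 2.35% of all probe sets were. At an unadjusted p below 0.05, 3 were higher and 6 lower (limma), against 14.2% of all probe sets in either direction. Changes were below 0 for 9 of the 13 and above 0 for 4. EPCAM rose by 0.77 ± 0.13 (limma adjusted p = 0.00044) and CDH1, the epithelial cadherin, fell by 1.55 ± 0.13 (limma adjusted p = 4.51e-08). CLDN7, a claudin, rose by 0.62 ± 0.13 (limma adjusted p = 0.00608), a call lost when H1975 was fitted alone (0.0829). KRT7, a keratin, rose by 0.33 ± 0.08 (limma adjusted p = 0.0278), a call lost without tolerant H1975 replicates 2 and 3 (0.156 and 0.0580), without SK-216 H1975 replicates 1 and 2 (0.166 and 0.0768), without the trend (0.295) and when H1975 was fitted alone (0.0543). The other keratins had lower means with SK-216 in H1975: KRT8 (16.13 to 15.89), KRT18 (14.30 to 14.04) and KRT19 (12.91 to 12.63). So did ELF3 (6.69 to 5.93) and MUC1 (8.79 to 8.22). The lower calls other than CDH1 were among these keratins, ELF3 and MUC1. The log2 of the summed signal of the 13 markers was 16.92 to 17.00 in tolerant and 16.85 to 16.88 in SK-216 H1975 cells, which did not overlap. In PC-9 it was 18.34 to 18.47 in tolerant and 18.48 to 18.55 in SK-216 cells.

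Of 12 leukocyte markers, 6 were above the olfactory receptor level in at least 1 group (CD14, CSF1R, CD3E, ITGAM, CD68 and NKG7), and the other 6, PTPRC, CD3D and LYZ among them, were not. CD68, a lysosomal protein that is not limited to leukocytes, had the highest signal of the list, with group means of 11.60 to 12.26, and carried most of the sum. None of the 12 was called with SK-216 in either line. At an unadjusted p below 0.05 (limma) there were 2 in H1975 and 1 in PC-9, against 14.2% and 10.9% of all probe sets. The summed log2 signal of the 12 leukocyte markers was 12.27 to 12.47 in tolerant and 12.34 to 12.45 in SK-216 H1975 cells, which overlapped. In PC-9 it was 11.81 to 11.84 in tolerant and 11.998 to 12.11 in SK-216 cells, higher with SK-216 and without overlap. Of 7 fibroblast markers, 3 were above the olfactory receptor level in at least 1 group (PDGFRB, COL1A2 and COL1A1), and the other 4 were not. COL1A1 and COL1A2 had the highest signals of the list in H1975, with group means of 7.98 to 9.02. COL1A1 was called lower in H1975 (-0.96 ± 0.21, limma adjusted p = 0.00693), a call lost without tolerant H1975 replicate 1 (0.0640) and without SK-216 H1975 replicate 3 (0.0510). At an unadjusted p below 0.05 in H1975, 1 of the 7 was lower and 2 were higher (limma). The summed fibroblast signal was 10.00 to 10.26 and 9.60 to 9.73 in H1975, lower with SK-216 and without overlap, and 8.57 to 8.94 and 8.97 to 9.32 in PC-9, higher with SK-216 and without overlap. Of 6 endothelial markers, 3 were above the olfactory receptor level in at least 1 group (VWF, CDH5 and CLDN5). None of the 6 was called with SK-216 in either line. Of all probe sets, 2.35% were called lower and 1.44% higher in H1975, and 0.443% were called in PC-9. At an unadjusted p below 0.05 (limma) there was none in H1975 and 1 in PC-9, against 14.2% and 10.9% of all probe sets. The part of these markers in the fall of IRF9 and IFIH1 was not tested.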

How the data were processed

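RNA of 12 samples, 3 in each of 4 groups, was measured on whole-transcript arrays from 250 ng of RNA each, per the labels' protocols. The authors' deposited values are log2 signals, 1 per probe set and array, between 2.19 and 18.61, with array medians of 6.56 to 6.62. The log scale was read from the values. The software was Transcriptome Analysis Console, per the submitters' processing notes. Software version, summarisation, normalization and genome build: not given in the sources used here. Values were used as they stand, without a filter. The number of arrays limits the precision.

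Of 21448 probe sets, 17709 had 1 symbol, none had several and 3739 had none here. Symbols came from the platform annotation, with identifiers looked up in a RefSeq table of GRCh38.p14. A 4-group model was fitted with limma 3.58.1 in R 4.3.3 (eBayes with a trend, 8 residual degrees of freedom, two-sided tests, Benjamini-Hochberg over all probe sets, calls below 0.05) and was tested on simulated data. Groups came from the titles. Nothing says that replicates are separate cultures, so p-values reflect the spread of these arrays alone, and that spread may be technical. The members and gene lists were chosen with earlier results of these data known. Named genes were the members, up to 4 called genes per list by adjusted p in each line, the 3 genes most correlated with each member, and fixed pathway partners. DDX58 and TMEM173 were matched under RIGI and STING1. Alternatives were the trend, robust variance, each line alone, replicate blocks, a filter on the dimmest 30%, quantile normalization, median centring, array weights and 12 fits without 1 array. For list genes these were added after the data were seen.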

Additional observations from a re-analysis of the deposited data

Results flagged for a closer look

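The SK-216 change of 2 genes differed between the lines by the test of the difference itself (PC-9 change minus H1975 change, limma over all 12 arrays). IFIH1 differed by 1.18 on the log2 scale (limma adjusted p = 0.00585), with a change of -0.94 in H1975 and 0.24 in PC-9. IRF9 differed by 1.10 (limma adjusted p = 0.0405), with changes of -1.12 and -0.02. The IRF9 call was lost in 9 of the 12 fits without 1 array and without the trend of the variance (limma adjusted p = 0.163), and the IFIH1 call in none of these. All 3 SK-216 arrays of H1975 lay below all 3 tolerant arrays for both genes, and the PC-9 groups overlapped for both.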

How the results depend on the processing

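The H1975 calls of IRF9 and IFIH1 were kept in all 21 alternatives, with limma adjusted p of 6.36e-05 to 0.0142 for IRF9 and 0.000355 to 0.0071 for IFIH1, and 2 of 8 genes were called lower in each. No gene of the 8 was called in PC-9 under any of them. Without the trend, calls over all probe sets numbered 448 in H1975 (814 with it), 18 in PC-9 (95) and 99 for the difference between the lines (304). Calls without 1 array ranged from 545 to 918 in H1975, 30 to 104 in PC-9, 220 to 335 for the difference and 8777 to 9452 between the tolerant lines. With 1 mismatch allowed in the promoter search, 2 genes held the response element core. Without the trend the differences between the lines of IFNGR1, STAT6, MYD88 and UBE2L6 had limma adjusted p of 0.0535, 0.0626, 0.150 and 0.139. TLR3, UBE2L6 and USP18 in H1975 had 0.0792, 0.118 and 0.0562, and for each of these the cause was not tested.

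Some changes near 0 turned in sign. Quantile normalization gave 0.031 for IRF7 and -0.033 for IFNAR2 in PC-9 and -0.052 for the difference of IFNAR1, median centring gave -0.0033 for that difference, and array weights gave 0.02 for IRF9 in PC-9. Without 1 array the change ranged from -0.20 to 0.10 for IRF7, -0.14 to 0.063 for TYK2 and -0.027 to 0.083 for IFNL1 in H1975. In PC-9 it ranged from -0.067 to 0.045 for IRF7, -0.20 to 0.21 for IRF9, -0.042 to 0.093 for IFNAR2, -0.01 to 0.15 for IFNGR1, -0.045 to 0.070 for STAT6 and -0.092 to 0.083 for MYD88. The IFNAR1 difference ranged from -0.093 to 0.080. The cause of these turns was not tested.

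Replicate numbers are shared by the groups, but same-numbered arrays did not deviate together (r of 0.0073, -0.091 and -0.085 in H1975 and 0.029, 0.020 and 0.015 in PC-9), so they were not taken as pairs. With a replicate block in each line, 58 probe sets were called in PC-9 and 673 in H1975, and the limma adjusted p of USP18 was 0.0719 (0.0537 with a block over both lines). The block changed no call among the 8 genes. With 3 arrays per group, intervals near 0.4 on either side of a change leave room for moderate changes in IRF1 and DHX58. The interval of IRF7, a gene at the olfactory receptor level, sets no bound on its change.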
